A study of Sus scrofa with 20 samples.

Results

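TBX4 and TBX5 are described here across 20 skin libraries of 5 pigs, as 2 of the 19280 genes of the deposited count table. They were found by symbol, and each symbol matched 1 Ensembl identifier (TBX4, ENSSSCG00000022980; TBX5, ENSSSCG00000009867). The pigs were untreated wild-type Yorkshire females aged 4, 5, 6, 7 and 8 months, and each gave a small punch biopsy of the sole, the upper side of the foot, the snout and the flank. Pigs are named by age below. The labels do not say whether a foot biopsy came from a fore foot or a hind foot, and the question asked of each foot library was which of them its levels lean towards.

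TBX4 and TBX5 encode T-box transcription factors that descend from a single ancestral gene. In the embryos of mouse and chick, TBX5 is switched on in the fore limb field and TBX4 in the hind limb field. Each takes part in limb outgrowth through FGF10 in limb mesenchyme. TBX4 lies downstream of PITX1 in the hind limb. Both genes also act outside limbs, TBX5 in the heart and TBX4 in the lung. Skin fibroblasts of adult mammals keep part of the positional gene activity of the embryo, HOX genes above all. PITX1 was not analysed here.

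The libraries held 34077861 to 66906489 estimated counts and form 2 sets by library number, 12 from the 4-, 7- and 8-month pigs and 8 from the 5- and 6-month pigs. The first set was used as labelled. All 8 libraries of the second set match a first-set site of another name in their expression, so they were placed by that match: label flank to sole, label volar to snout, label dorsal to flank and label snout to upper foot. Computed without TBX4, TBX5 and every gene list used below, the match named the same site for 8 of 8 libraries, with r from 0.768 to 0.871 over 2000 genes and the closest margin in the flank library of the 6-month pig (0.801 against 0.745 for the next site). Results by the deposited labels and within each set are given beside those by matched site. The 5 animals of a site are its replicates. Levels are CPM, counts scaled to library size with TMM factors.

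TBX5 was nearly absent from snout skin and present in all 15 other libraries, with the highest mean on the upper foot. In bulk skin, fewer cells of a type and less RNA per cell cannot be told apart. The sole libraries had 3.37, 0.699, 2.52, 1.72 and 5.34 CPM in the pigs aged 4, 5, 6, 7 and 8 months. The upper foot libraries of the same pigs had 4.65, 5.08, 8.24, 5.24 and 6.80 CPM. The 5-month sole was the lowest foot library and the 8-month sole reached the level of upper foot libraries, so the groups overlapped, although within each of the 5 pigs the sole was below the upper foot. In the snout, TBX5 had a count of 0, 1, 0, 0 and 1, against 20 to 399 counts in every other library. The flank libraries had 2.99, 3.35, 1.62, 3.55 and 5.38 CPM, in the range of the sole. A library floor of 3 counts stands at 0.0419 to 0.0814 CPM in the snout, so all 5 snout libraries were under the limit that a count of 0 allows.

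By group, TBX5 averaged 2.73 ± 1.76 CPM on the sole, 6.00 ± 1.49 CPM on the upper foot and 3.38 ± 1.35 CPM on the flank (SD, n = 5 each), and the snout had 2 counts in all. TBX5 differed between sites in edgeR's quasi-likelihood test (adjusted p = 3.33e-08), as did 56.2% of the 15275 genes tested. Folds against the snout are given as count ratios with an exact 95% interval that covers counting error only. The ratio to the snout was 453 for the sole (125 to 3750), 859 for the upper foot (237 to 7100) and 532 for the flank (147 to 4400). TBX5 was higher on the upper foot than on the snout (adjusted p = 2.15e-08, with 7.68% of genes called higher), higher on the sole than on the snout (9.49e-08, 16.9% called higher) and lower on the snout than on the flank (4.73e-08, 11.8% called lower). These 3 calls held within each set (adjusted p from 5.78e-05 to 8.33e-05 in the first and from 0.00352 to 0.00631 in the second). For sole against snout 11.6% of genes were called in the first set and 38.5% in the second, for upper foot against snout 7.92% and 10.2%, and for snout against flank 13.2% and 13%. The site test was also passed in each set, at 7.38e-05 in the first and 0.00296 in the second, beside 30.4% and 44.5% of genes. Over both foot sites against flank and snout together TBX5 was higher (adjusted p = 4.84e-07, where 11.9% of genes were called higher), but neither foot site passed the test against the flank alone. That contrast held in the first set (4e-04, with 7.1% of genes called) and in the second (0.00534, with 26.5%).

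Inside the foot, TBX5 was lower on the sole than on the upper foot (log2 fold change -1.13 ± 0.41 (SE), adjusted p = 0.03 in edgeR, lower in 5 of 5 pigs), a comparison in which 22.6% of genes were called lower. The sets alone gave -0.68 ± 0.43 (adjusted p = 0.295) in the first set, where 24.1% of genes were called, and -2.06 ± 0.66 (0.0427) in the second, where 42.9% were. With each of the 20 libraries and each of the 5 pigs left out in turn, the call over all libraries was lost in 8 of 25 removals (adjusted p up to 0.118), those of the sole libraries of the 5-, 6- and 7-month pigs, the upper foot libraries of the 6- and 8-month pigs, and all libraries of the 5-, 6- or 7-month pig. Against the flank the sole gave -0.30 ± 0.41 (adjusted p = 0.558, lower in 3 of 5 pigs) and the upper foot 0.825 ± 0.40 (0.441, higher in 5 of 5), a comparison in which 1.16% of genes were called. In the order upper foot, flank, sole and snout, neither upper foot and flank nor flank and sole differed past the threshold.

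TBX4 was found in all 20 libraries, the snout included, and was highest in the foot. The sole libraries had 4.23, 3.42, 1.79, 2.55 and 1.82 CPM in the pigs aged 4, 5, 6, 7 and 8 months. The upper foot libraries of these pigs had 3.78, 4.21, 1.27, 2.85 and 0.971 CPM. In both foot sites the pigs aged 4, 5 and 7 months stood above those aged 6 and 8 months, and on the upper foot the 8-month pig was as low as the flank. The snout libraries had 0.461, 0.937, 0.542, 0.335 and 0.548 CPM, which rest on 20 to 63 counts each and are well above the floor of 3 counts. The flank libraries had 2.50, 0.881, 1.23, 1.155 and 1.10 CPM, with the 4-month flank apart from the other 4. No foot library was as low as the highest snout library, although the 8-month upper foot came close.

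Group levels of TBX4 were 2.76 ± 1.06 CPM on the sole, 2.62 ± 1.45 CPM on the upper foot, 0.565 ± 0.225 CPM on the snout and 1.37 ± 0.644 CPM on the flank (SD, n = 5 each). TBX4 differed between sites (edgeR adjusted p = 0.0006) and was higher in both foot sites together than in flank and snout (log2 fold change 1.61 ± 0.29, adjusted p = 0.000664). The foot call held in each set, at 1.68 ± 0.38 (adjusted p = 0.0252) in the first and 1.59 ± 0.46 (0.0434) in the second. TBX4 was higher on the sole than on the snout (2.29 ± 0.43, adjusted p = 0.000436, higher in 5 of 5 pigs). It was also higher on the upper foot than on the snout (2.21 ± 0.43, 0.000992, 5 of 5 pigs). Within the second set alone these 2 gave adjusted p = 0.0675 and 0.131.

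The foot and flank were less clearly apart for TBX4. The sole passed narrowly against the flank (1.01 ± 0.41, adjusted p = 0.0445, higher in 5 of 5 pigs), where 24.2% of genes were called higher. That call was lost in 14 of 25 removals (adjusted p up to 0.154), under upper-quartile scaling (0.0683) and in each set alone (0.233 in the first and 0.139 in the second, with 32.9% and 46.7% of genes called). Those removals were of the sole libraries of the 4-, 5- and 7-month pigs, the flank libraries of the 5-, 6-, 7- and 8-month pigs, the snout libraries of the 6- and 8-month pigs, the upper foot library of the 7-month pig, and all libraries of the 5-, 6-, 7- or 8-month pig. The upper foot against the flank gave 0.94 ± 0.41 (adjusted p = 0.354, higher in 4 of 5 pigs). The snout was lower than the flank (-1.27 ± 0.42, adjusted p = 0.0312, lower in 4 of 5 pigs). That call was lost in limma-voom (adjusted p = 0.0741), in each set alone (0.0519 in the first and 0.667 in the second) and in 8 of 25 removals (adjusted p up to 0.161): the snout libraries of the 4-, 6-, 7- and 8-month pigs, the flank library of the 4-month pig, and all libraries of the 4-, 6- or 7-month pig. Sole and upper foot gave 0.08 ± 0.40 (adjusted p = 0.897, higher on the sole in 3 of 5 pigs). That standard error leaves room for a difference in either direction, so this does not show equal levels.

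**Figure D1:**
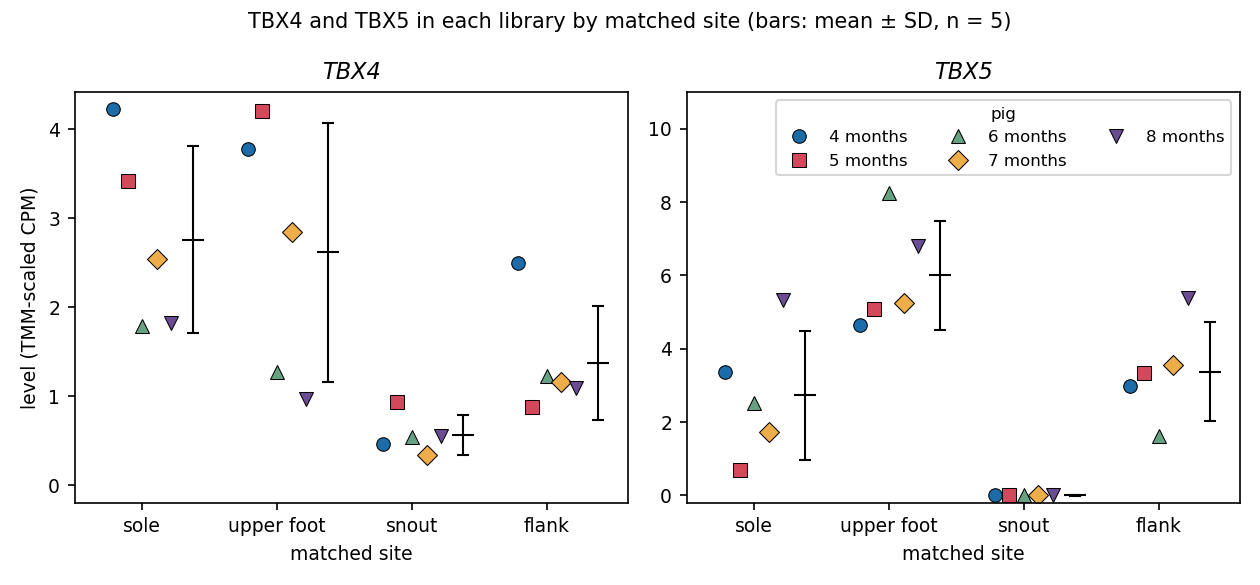
TBX4 (left) and TBX5 (right) in TMM-scaled CPM on the y axis for each library, by matched site on the x axis, with 1 symbol per pig and the mean ± SD (n = 5) beside each group. TBX5 lay under 0.02 CPM in all 5 snout libraries and TBX4 between 0.335 and 0.937 CPM, while the foot libraries spread from 0.971 to 4.23 CPM for TBX4 and from 0.699 to 8.24 CPM for TBX5.

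By the deposited labels both genes lost their order. Libraries labelled volar held TBX5 at 0 to 5.34 CPM, those labelled dorsal at 1.62 to 6.80 CPM, those labelled snout at 0 to 8.24 CPM and those labelled flank at 0.699 to 5.38 CPM. For TBX4 the label volar spanned 0.542 to 4.23 CPM and the label snout 0.335 to 4.21 CPM. With these labels neither gene differed between sites in edgeR (adjusted p = 0.934 for TBX4 and 0.963 for TBX5), nor did labels volar and dorsal together against flank and snout (log2 fold change 0.27, adjusted p = 1, for TBX4). By matched site, neither gene showed a site by set interaction (adjusted p = 0.924 for TBX4 and 0.832 for TBX5, where 0.0655% of genes were called).

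**Figure D2:**
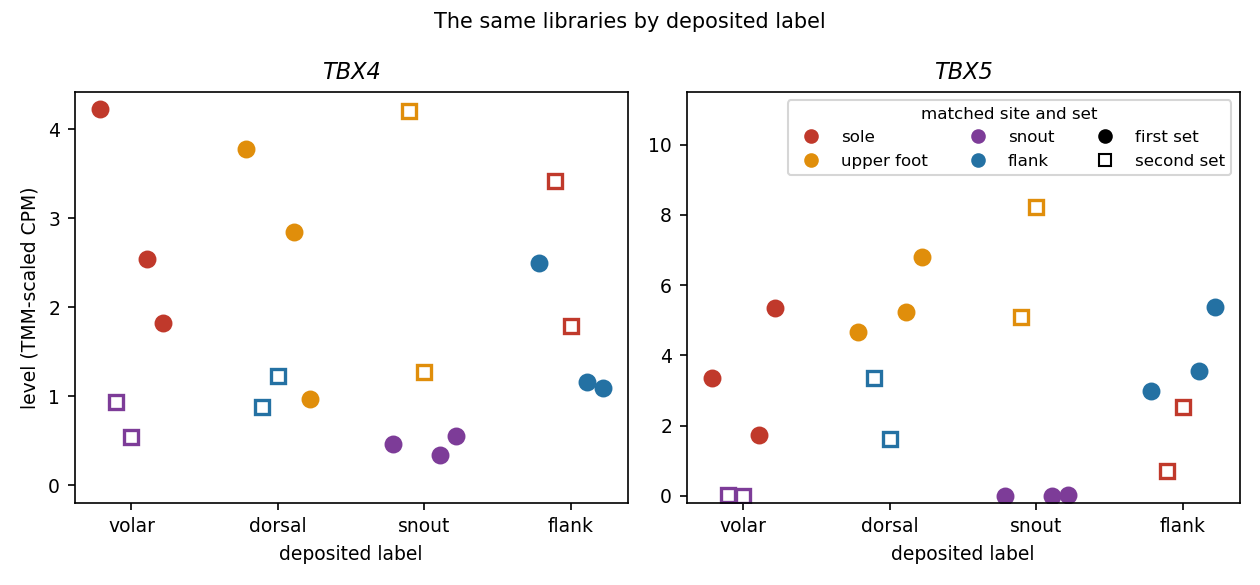
The same 20 values per gene in TMM-scaled CPM on the y axis, now by deposited label on the x axis, with the matched site as colour and the library set as symbol (filled, first set; open, second set). The 2 second-set libraries labelled volar had TBX5 at 0 and 0.0149 CPM, and the 2 labelled snout at 5.08 and 8.24 CPM.

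For the fore or hind foot question, the TBX4 part of the TBX4 and TBX5 counts of a library was taken, with its 95% Wilson interval. It does not compare the genes with each other, since transcript lengths were not used, but it can be compared between libraries. On the sole TBX4 made up 55.7% of the 2 genes' counts in the 4-month pig (50% to 61.2%), 83.1% in the 5-month pig (75.3% to 88.8%) and 59.6% in the 7-month pig (52% to 66.8%). It made up 41.5% in the 6-month pig (32.1% to 51.6%) and 25.5% in the 8-month pig (21.3% to 30.2%). The 6-month interval overlapped that of the 4-month pig at its end.

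On the upper foot the order of the pigs was similar. TBX4 made up 44.8% of the pair's counts in the 4-month pig (40.8% to 49%), 45.3% in the 5-month pig (41.3% to 49.3%) and 35.2% in the 7-month pig (31.6% to 39.1%). In the 6-month and 8-month pigs it made up 13.4% (10.5% to 16.9%) and 12.5% (9.56% to 16.2%). The intervals of these 2 pigs lay below those of the other 3. So within each foot site the TBX4 part was higher in the pigs aged 4, 5 and 7 months than in those aged 6 and 8 months, with the sole of the 6-month pig the least clear. Relative to the other pigs at the same site, the libraries of the 4-, 5- and 7-month pigs lay nearer the hind limb gene and those of the 6- and 8-month pigs nearer the fore limb gene. This is an order of pigs within a site only: the 7-month upper foot, at 35.2%, lay below the 6-month sole, at 41.5%. Each library set held pigs at both ends of this order, and the part of the set in it was not tested. The order is not an assignment: each of the 10 foot libraries expressed both genes, and the flank, which is no limb, covered 16.9% to 45.6%, much of the same range. The snout, also no limb, had 97% to 100%, above every foot library, with TBX5 at 0 or 1 count. A high TBX4 part thus also arose outside limbs, where TBX5 was nearly absent. No library was placed in a group by these values.

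**Figure D3:**
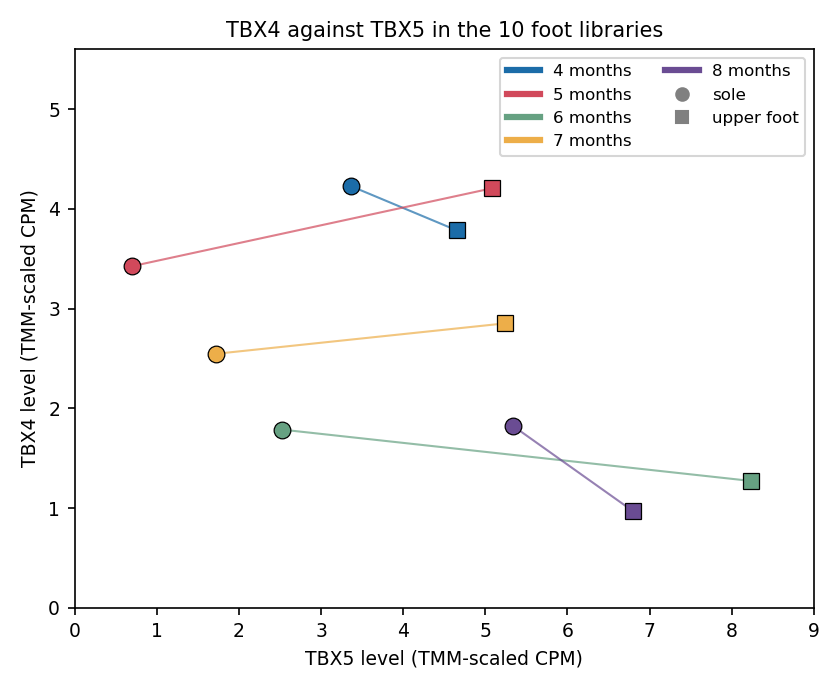
TBX4 on the y axis against TBX5 on the x axis, both in TMM-scaled CPM, in the 10 foot libraries, with a line joining the sole (circle) and upper foot (square) of each pig. The libraries of the 6- and 8-month pigs lay at 0.971 to 1.82 CPM of TBX4 and those of the other 3 pigs at 2.55 to 4.23 CPM; all 5 lines run to the right, from sole to upper foot.

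HOX genes of fore and hind limb were set beside the pair. HOXC10 and HOXC11, which in mouse limb buds belong to the hind limb, were present in every foot library and did not divide the pigs in the way TBX4 did. HOXC10 had 5.01, 3.21, 5.09, 4.12 and 3.05 CPM on the sole and 2.56, 2.58, 2.37, 2.18 and 3.07 CPM on the upper foot of the pigs aged 4 to 8 months in order of age. HOXC11 ran from 3.11 to 5.85 CPM on the sole and from 1.41 to 2.05 CPM on the upper foot. The 6- and 8-month pigs lay inside the range of the others in the sole for HOXC11, and HOXC10 was highest in the 6-month sole and in the 8-month upper foot. HOXC10 and HOXC11 had no count in any snout library. Both were present in the flank, HOXC10 at 0.720 to 2.27 CPM and HOXC11 at 0.0926 to 0.282 CPM. HOXC10 there overlapped the upper foot, and upper foot minus flank gave 0.77 ± 0.27 (edgeR adjusted p = 0.237). Its presence in a foot library is therefore not particular to the limb.

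HOXA5, a HOX gene of anterior type placed with the fore limb list, went with TBX4 in the foot. HOXA5 had 9.59, 6.15, 2.02, 9.39 and 3.03 CPM on the sole, and 13.4, 14.1, 7.66, 21.6 and 6.07 CPM on the upper foot, in the same order of pigs. In both sites the 6- and 8-month pigs were the lowest. The other fore limb genes did not show this: on the sole HOXC4 was lowest in the 4-month pig (0.531 CPM) and highest in the 5-month pig (2.20 CPM), and HOXC6 had 0.384 to 0.926 CPM there and 0.956 to 1.25 CPM on the upper foot. HOXC5 had 0.127 to 0.540 CPM on the sole and 0.685 to 1.18 CPM on the upper foot. HOXB5 stayed at or under 0.291 CPM in the foot. Of the hind limb list, HOXC9 had 0.804 to 1.72 CPM on the sole and 1.71 to 2.79 CPM on the upper foot, and was highest in the 6- and 8-month pigs on the upper foot (2.79 and 2.41 CPM). ISL1, an early hind limb factor in the mouse, was at most 0.180 CPM in the foot and 1.06 to 6.73 CPM in the snout.

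HOXA9 was the gene whose levels ran most like those of TBX4 over the 20 libraries (Pearson r = 0.901 of log2 CPM with 0.5 added). It was named for that likeness, so its values are a description. HOXA9, a patterning gene of the posterior body and proximal limb in the mouse, had 34.1, 24.4, 1.28, 24.1 and 1.88 CPM on the sole of the pigs aged 4, 5, 6, 7 and 8 months. The upper foot libraries had 29.6, 23.6, 5.18, 24.1 and 3.26 CPM. The pigs aged 6 and 8 months were thus low in both sites, with no value between 5.18 and 23.6 CPM. The snout had at most 0.0297 CPM of HOXA9 and the flank 4.89, 1.07, 3.18, 4.68 and 7.39 CPM.

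**Figure D4:**
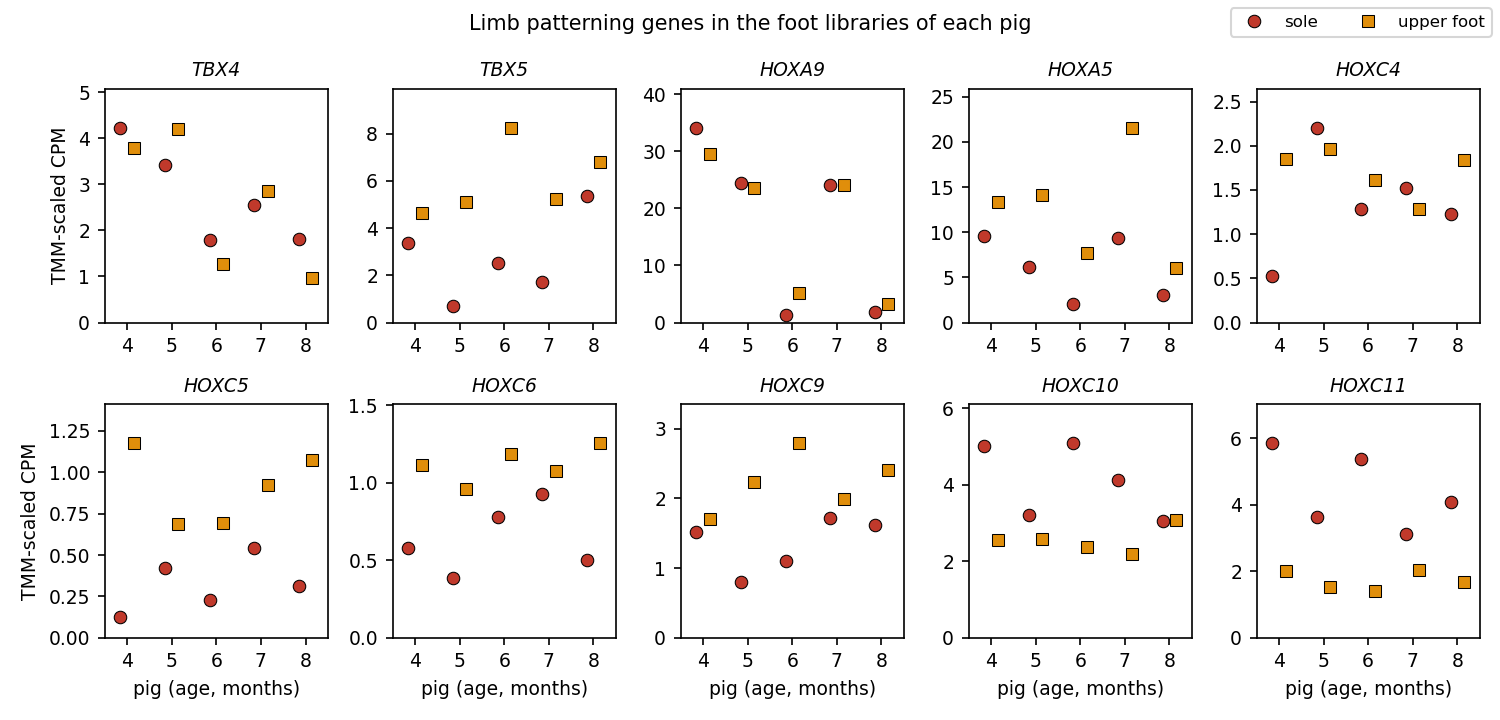
TBX4, TBX5 and 8 HOX genes in the foot libraries, in TMM-scaled CPM on the y axis (each panel with its own scale from 0) against the pig, named by age in months, on the x axis (circles, sole; squares, upper foot). HOXA9, picked for its likeness to TBX4, lay at 23.6 to 34.1 CPM in the pigs aged 4, 5 and 7 months and at 1.28 to 5.18 CPM in those aged 6 and 8 months. TBX4 was also lower in the pigs aged 6 and 8 months at both sites, and HOXC10 and HOXC11 did not divide the pigs in this way.

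After HOXA9, the genes most like TBX4 were LRP2BP (r = 0.819), CD109, which encodes a co-receptor that restrains TGF-beta signalling (0.811), DIAPH2, a formin of the actin skeleton (0.802), and HOXD10 (0.794). For TBX5 they were GGCT, an enzyme of glutathione turnover (0.884), KRT2, a keratin of the upper epidermis (0.881), SHMT1, an enzyme of folate metabolism (0.856), IL31RA, a receptor of itch signalling (0.856), and RASL11A (0.856). KRT2 shows what such a likeness over 20 libraries is made of: it had 29.9 to 528 CPM on the sole, 2530 to 4290 CPM on the upper foot, 2.42 to 9.03 CPM on the snout and 1020 to 5760 CPM on the flank, a site order near that of TBX5. TBX4 and TBX5 themselves had r = 0.564 over the 20 libraries, with the low snout in common, and r = -0.411 over the 10 foot libraries. In the foot, the log2 ratio of TBX4 to TBX5 ran most closely with MARCHF8 (r = 0.951), PDE1C (0.921), MPST (0.91), PCM1 (0.901) and TDRD3 (0.9). It ran most closely against WDR35 (r = -0.944), TMEM62 (-0.927), APAF1 (-0.925), RNF227 (-0.916) and VSIG10 (-0.912). Of these, MARCHF8 had 5.09 to 8.77 CPM on the sole and 3.72 to 5.52 CPM on the upper foot. Libraries of 1 pig share their source, and these r values describe the 10 libraries only.

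By site, members of both limb lists were called. In both foot sites against flank and snout, 3 of 4 hind limb genes tested were higher and 1 was lower (ISL1), and 4 of 5 fore limb genes were higher and 0 lower, where 11.9% of all genes were called higher and 15.3% lower. The median log2 fold change was 4.86 for the hind limb list and 1.70 for the fore limb list, against -0.02 for all genes. These medians are fitted values that depend on the snout, where several members had no count. Against the flank alone, 2 of the 4 hind limb genes were higher and 1 was lower on the sole, where 24.2% of all genes were higher. On the sole HOXC11 (4.83 ± 0.33, adjusted p = 2.86e-08 in edgeR) and HOXC10 (1.45 ± 0.28, 0.00047) were higher than on the flank, and HOXC9 (-1.93 ± 0.24, 8.05e-06) was lower. Of the fore limb list 0 were higher and 4 of 5 lower there, where 27.7% of all genes were lower, such as HOXC5 (-3.62 ± 0.36, adjusted p = 1.82e-07) and HOXC6 (-2.89 ± 0.40, 8.39e-06). On the upper foot against the flank, 1 of the 4 hind limb genes was higher (HOXC11) and 1 lower (HOXC9), and 0 of the 5 fore limb genes were higher and 2 lower (HOXC5 and HOXC6), where 1.16% of all genes were called. The difference between the lists was not tested.

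Genes of the distal limb, from the HOXA and HOXD clusters, were 5 of 5 higher in the foot than in flank and snout, with a median of 5.25, where 11.9% of all genes were called higher. That median is a fitted value that depends on the snout, where HOXD12 had no count and HOXA10 had 1. Against the flank alone, 3 of the 5 were higher on the sole, where 24.2% of all genes were higher. On the upper foot 3 of the 5 were higher than on the flank, where 1.16% of all genes were called. HOXA11, a gene of the forearm and lower leg segment in mouse limbs, had 5.26, 0.594, 0.733, 1.34 and 2.37 CPM on the sole and 4.38, 6.39, 4.58, 4.46 and 3.24 CPM on the upper foot, and at most 0.0446 CPM on the snout and 0.679 CPM on the flank. HOXA13 and HOXD13 were not analysed here. Between sole and upper foot 0 of the 5 passed edgeR's test, where 23% of all genes were called higher and 22.6% lower; HOXD12 and HOXA11 had an unadjusted p under 0.05 there (0.0461 and 0.0491, adjusted p = 0.0891 and 0.0939).

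Among other T-box genes, 9 of the 14 in the table passed the filter on low counts. In both foot sites against flank and snout 2 of the 9 were higher and 0 lower, where 11.9% of all genes were called higher and 15.3% lower, so the count is close to that of all genes. TBX20, a heart factor, was higher (adjusted p = 1.61e-05) at a low level, with 0.367 to 1.03 CPM on the sole, 0.201 to 0.328 CPM on the upper foot, no count on the snout and at most 0.0771 CPM on the flank. TBX18, a gene of mesenchyme including the dermal papilla, was higher by 0.93 ± 0.24 on the log2 scale (adjusted p = 0.00751). TBX2 and TBX3, the closest relatives of the pair, did not share its site order. TBX3, which in the embryo marks the posterior limb margin and the mammary line, had 27.7 to 36.3 CPM on the sole and 10.2 to 15.1 CPM on the upper foot, and was higher on the sole (1.40 ± 0.19, adjusted p = 6.98e-06). On the snout, where TBX5 was nearly absent, TBX3 had 29.2 to 54.1 CPM, against 6.76 to 13.8 CPM on the flank. TBX2 did not differ between sites past the threshold (adjusted p = 0.162).

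Partners and targets of the pair gave 1 gene higher and 4 lower of 10 tested, in both foot sites against flank and snout, where 11.9% of all genes were called higher and 15.3% lower. FGF10, the growth factor through which both act in the limb bud, was lower (-1.47 ± 0.36, adjusted p = 0.00501). On the sole it had 0.0458 to 2.56 CPM, on the upper foot 2.94 to 4.93 CPM, on the snout 3.51 to 6.03 CPM and on the flank 2.77 to 11.4 CPM. SALL1, a zinc finger gene of limb and kidney, was higher (1.72 ± 0.36, 0.00184), with 0.233 to 0.785 CPM on the sole, 0.0809 to 0.168 CPM on the upper foot, at most 0.143 CPM on the snout and 0.0750 to 0.139 CPM on the flank. The upper foot alone did not pass for SALL1 against the flank (0.37 ± 0.50, adjusted p = 0.887) or the snout (1.09 ± 0.52, 0.162), and for FGF10 it gave -0.81 ± 0.49 against the flank (0.579). Between sole and upper foot 2 of the 10 were higher and 6 lower, against 23% and 22.6% of all genes. BMP4 (-2.28 ± 0.33, adjusted p = 1.69e-05), GATA6 (-2.77 ± 0.41, 2.52e-05) and GJA5, a connexin gene that TBX5 activates in the heart (-1.46 ± 0.35, 0.00205), were lower on the sole. The 2 that went the other way were SALL1 (1.98 ± 0.48, adjusted p = 0.00248) and GATA4 (1.435 ± 0.50, 0.0242). BMP4, GATA6 and GJA5 did not keep the site order of TBX5. On the snout, where TBX5 was nearly absent, they averaged 6.753, 2.16 and 3.859 CPM, against 3.871, 1.36 and 3.265 CPM on the sole. Sole minus snout did not pass for them (edgeR adjusted p = 0.0561, 0.211 and 0.628).

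Summed levels of cell type genes differed between these sites. The summed level of 6 dermal fibroblast genes was 6210 to 37400 CPM on the sole, 28500 to 82300 CPM on the upper foot, 22100 to 50700 CPM on the snout and 102000 to 230000 CPM on the flank, with none of the 6 at 0. That of 3 keratinocyte genes was 240000 to 568000 CPM on the sole, 12000 to 21800 CPM on the upper foot, 12000 to 23000 CPM on the snout and 8300 to 15000 CPM on the flank. On the sole KRT1 and KRT10 made up nearly all of this sum, with means of 291100 and 67240 CPM, against 361 CPM for TP63. Between sole and upper foot TP63 gave a log2 fold change of 0.23 ± 0.18 (edgeR adjusted p = 0.312). Most of the fibroblast sum on the flank came from COL1A1, COL1A2 and COL3A1, with means of 24030, 52600 and 62330 CPM. PDGFRA had 134.9 CPM there and gave 0.03 ± 0.25 for upper foot minus flank (edgeR adjusted p = 0.989). For sole minus upper foot PDGFRA gave -1.69 ± 0.26 (2.97e-05). The sums therefore do not give the share of a cell type. Other cell type lists did not all move the same way between the foot sites. The sum of 4 tendon genes was 722 to 2830 CPM on the sole and 23.2 to 70.2 CPM on the upper foot. That of 2 endothelial genes was 216 to 376 CPM on the sole and 259 to 330 CPM on the upper foot. The sum of 3 smooth muscle genes was 39.9 to 300 CPM on the sole and 416 to 672 CPM on the upper foot, that of 4 adipocyte genes 36.1 to 146 CPM on the sole and 452 to 673 CPM on the upper foot, and that of 4 hair follicle genes 0.0759 to 21.1 CPM on the sole and 2450 to 6700 CPM on the upper foot. Over the 10 foot libraries, which share pigs and sites, the smooth muscle genes ACTA2, CNN1 and MYH11 had r = 0.949, 0.928 and 0.859 with TBX5. Over all 20 libraries their r with TBX5 was 0.597, 0.544 and 0.521. High r with TBX5 in the foot was not particular to smooth muscle genes. DCN had 0.858, PDGFRA 0.809, LPL 0.842 and PLIN1 0.814, with LUM at 0.473 and FABP4 at 0.269, while KRT1 and KRT10 had -0.754 and -0.683. TBX5 was thus lower on the sole than on the upper foot, as were the fibroblast, smooth muscle, adipocyte and hair follicle sums. The keratinocyte and tendon sums were higher on the sole, and the endothelial sums overlapped. TBX4 gave no call between these sites, and the part of cell makeup in these results was not tested. Skeletal muscle genes (5 measured) reached 2520, 4270 and 5980 CPM in the snout of the 5-, 6- and 7-month pigs and at most 12.3 CPM in the other 2 snouts, and TBX5 had at most 1 count in each of the 5. Between the pigs, in order of age, the fibroblast sum was 37400, 8170, 6210, 12700 and 19000 CPM on the sole and 77400, 82300, 50900, 44400 and 28500 CPM on the upper foot. The 6-month pig was lowest on the sole and the 8-month pig on the upper foot, the other value of each lay among those of the remaining pigs, and the part of this in the levels of TBX4 was not tested.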

How the data were processed

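Skin RNA from 20 biopsies (5 pigs, 4 sites) was sequenced as stranded mRNA libraries, per the labels' protocols. Estimated counts per Ensembl gene were deposited in 1 table. The submitters' processing notes name Salmon, with no version; build and annotation are not given in the sources used. Values off a whole number by more than 0.000000001 made up 42.2%, and all were rounded. Symbols came from a supplied table, which matched 14821 of 19280 identifiers. Genes passing filterByExpr (count minimum 10, total minimum 15) were 15275. They were scaled by TMM (factors 0.569 to 1.291) and tested with edgeR 4.0.16 (quasi-likelihood, robust; R 4.3.3) on the 4 matched sites, with 16 residual degrees of freedom and Benjamini-Hochberg adjustment over all genes tested (threshold 0.05). Standard errors are the log2 fold change over the root of F. Estimated counts carry no molecular identifiers, so intervals and floors cover counting error only.

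The sites of the second set rest on expression, so p-values by matched site are conditional on that match. Libraries of 1 pig are paired by the labels: over 30 pairs, what remained after taking off each site's mean correlated at a median r of 0.22 (-0.026 to 0.54). Alternatives were DESeq2 1.42.0, limma-voom (limma 3.58.1), other scalings and filters, the 20 most abundant genes left out, pig or set as a term, each set alone, the deposited labels, and each library or pig left out. The rule for naming took TBX4 and TBX5, the members of the lists (fore and hind limb per library, others by counts with up to 4 members of smallest adjusted p; TBX2 and TBX3 were also picked as close relatives), and the 5 genes of at least 1 CPM with the highest r to each gene, or the highest and lowest r to their log2 ratio in the foot. The members, lists and tests were chosen with earlier results of these data known. The tests were run on simulated counts with 100 genes changed 2-fold and 100 changed 4-fold. For sole minus upper foot 61 and 90 of these were recovered, with 10 false calls. For both foot sites against flank and snout 76 and 97 were recovered, with 7 false calls. The simulated libraries were drawn independently, so the likeness between libraries of 1 pig was not covered.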

Additional observations from a re-analysis of the deposited data

Results flagged for a closer look

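In groups of 5 libraries, a library far from the other 4 was looked for in TBX4, TBX5 and the fore and hind limb lists. Chance alone marks about 1 in 20 of such groups when values are normally spread, and 40 were looked at. Groups with counts near 0 need not keep to that rate. TBX4 in the flank of the 4-month pig stood at 2.50 CPM, against 0.881 to 1.23 CPM in the other 4 flanks. ISL1 in the snout of the 8-month pig was at 1.06 CPM, against 5.50 to 6.73 CPM in the other snouts, and ISL1 in the flank of the 4-month pig was at 0.208 CPM, against at most 0.0522 CPM. HOXC11 in the flank of the 5-month pig was at 0.282 CPM, against 0.0926 to 0.139 CPM. In the snout of the 5-month pig HOXC6 was at 0.0446 CPM with 0 in the others, and HOXB5 at 0.164 CPM, against at most 0.0318 CPM. That HOXC6 value rests on 3 counts, which is the floor of the library. No TBX5 group held such a library.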

How the results depend on the processing

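With the deposited labels in place of the matched sites, both genes lost their calls: both foot sites against flank and snout gave 0.27 for TBX4 and 0.0816 for TBX5 (log2, adjusted p = 1 in each), the test for any site 0.934 and 0.963 (adjusted p), and sole minus upper foot -1.05 for TBX5 (0.665). TBX4 turned to -0.0284 for upper foot minus flank and TBX5 to -0.35 for sole minus snout with these labels. In the first set alone TBX5 gave -0.68 for sole minus upper foot (0.295). In the second set alone TBX4 gave an adjusted p of 0.102 for any site. TBX4 for sole minus upper foot, near 0 throughout, turned to -0.0452 under upper-quartile scaling, which moved the median of all genes by -0.12, and to -0.0672 in the second set. Leaving out libraries or pigs it ran from -0.143 to 0.312, and TBX5 from -1.53 to -0.883. TBX5 gave -0.938 without the 5-month pig and -0.958 without the 6-month pig, and TBX4 gave -0.0215 without the 8-month pig. TBX4 for both foot sites ran from 1.49 to 1.78 and TBX5 from 4.32 to 4.89 (a fitted value that depends on the prior count), with 25 of 25 removals keeping both calls. TBX4 for snout minus flank lost its call in limma-voom (adjusted p = 0.0741) and in each set alone (0.0519 and 0.667). The cause of these changes was not tested. With the pig as replicate block no call of TBX4 or TBX5 changed, and TBX5 for sole minus upper foot gave -1.30 (adjusted p = 0.00908). The other scalings, filters and tools kept the remaining calls of both genes. The second set holds 2 pigs a site, and TBX4 rests on 20 to 264 counts a library, which limits small differences.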
